A study of Homo sapiens with 4 samples.

Results

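The genes described here encode the factors that start, elongate and end protein synthesis in the cytoplasm, together with the proteins that bind or modify them. They were chosen by symbol from the deposited table, as genes named EIF followed by a digit from 1 to 6, genes named EEF followed by 1 or 2, and MCTS1, DENR, ETF1 and GSPT1. Symbols with a hyphen and pseudogenes were left out. Of 13957 genes in the table, 109 matched the pattern, 39 of these were pseudogenes and 70 were kept. EIF4EBP1 and EIF4EBP2 end in P and a number, as pseudogenes do, but are protein coding and were kept.

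RNA-seq was performed on MDA-MB-231 Fluc cells, a triple-negative breast cancer line that carries a luciferase gene for imaging. Cordycepin at 50 μM was given to 2 samples and the vehicle DMSO to 2 others, in both cases for 2 h. Cordycepin is 3′ deoxyadenosine, an adenosine analogue made by caterpillar fungi. The libraries were stranded and depleted of ribosomal RNA, and no source used here says whether the samples of a group came from separate cultures.

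The deposited table gives 1 level for each gene, a log2 CPM (counts scaled to a common library size) that the authors averaged over the libraries. No level of a single sample or of either treatment was available to this description, so library depths are unknown, neither an SD nor a test is given, and the effect of cordycepin on these genes was not analysed here. Each value below is therefore the authors' mean over treated and control cells together. The levels of all 13957 genes ran from 0.56 to 13.43 on the log2 CPM scale with a median of 4.58. Because long mRNAs give more reads, genes were compared with each other as CPM per kilobase (kb) of their canonical transcript in GENCODE release 44. On that scale the median of the 13922 genes with a canonical transcript was 3.04 in log2, or 8.23 CPM per kb. The markers VIM, CD44, AXL, CAV1 and FOSL1 of mesenchymal breast cancer lines lay at percentiles from 97.7 to 99.3 of all genes per kb, and EGFR at 84.3. The oestrogen and progesterone receptor genes ESR1 and PGR and all 6 markers of immune and other cell types had no row. CDH1, the epithelial cadherin gene, was at percentile 23.2, whereas the keratin genes KRT8 and KRT18 were at 98.4 and 97.2. Of the other luminal or epithelial markers, ERBB2 was at percentile 71.6, EPCAM at 50.2, GATA3 at 46.8 and FOXA1 at 12.4.

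Protein synthesis starts when eIF2, bound to GTP and the initiator tRNA, joins the small ribosomal subunit with eIF1, eIF1A, eIF3 and eIF5. The eIF4 factors bring the capped mRNA to this complex, with eIF4E holding the cap, eIF4A unwinding the leader and eIF4G bridging to eIF3. The 4E-BP proteins, which mTOR kinase phosphorylates, compete with eIF4G for eIF4E. The eEF1 complex then delivers aminoacyl-tRNA to the ribosome and eEF2 moves it along the mRNA. Many mRNAs of the translation machinery begin with a C followed by an unbroken run of pyrimidines, the terminal oligopyrimidine (TOP) tract, through which mTOR controls their translation.

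The start sequences are shown first, because the TOP tract is a known control sequence of many mRNAs of the translation machinery. RefSeq promoter sequences (GRCh38.p14) were found for 55 of the 70 genes and for 9764 genes of the table. A start was counted as TOP-like if the annotated first base was C and it and the next 4 bases were all C or T. This held for 13 of the 55 genes (23.6%), beside 542 of 9764 genes (5.55%) in the table and 47 of 66 cytosolic ribosomal protein genes (71.2%). The first 20 bases of the transcript, 5′ to 3′, are given for the 13 genes with the pyrimidine run in capitals.
EEF1A1 (chr6:73521013-73521032, minus strand): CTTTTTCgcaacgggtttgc
EEF1B2 (chr2:206159895-206159914, plus strand): CCTTTTTCCTCTCTTCagcg
EEF2 (chr19:3985444-3985463, minus strand): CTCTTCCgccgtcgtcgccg
EIF2A (chr3:150546787-150546806, plus strand): CTCTTTCCgggacaacatgg
EIF2D (chr1:206612446-206612465, minus strand): CCTTTTCgcggccgggcccc
EIF2S3 (chrX:24054956-24054975, plus strand): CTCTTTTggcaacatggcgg
EIF2S3B (chr12:10505890-10505909, plus strand): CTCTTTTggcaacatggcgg
EIF3D (chr22:36529147-36529166, minus strand): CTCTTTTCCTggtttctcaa
EIF3F (chr11:7987337-7987356, plus strand): CTTCTTTCTCgacaagatgg
EIF3K (chr19:38619188-38619207, plus strand): CTCTTCCTgttcccgtcctt
EIF3M (chr11:32583831-32583850, plus strand): CTTTTCCggtcggcgtggtc
EIF4A2 (chr3:186783577-186783596, plus strand): CTTTTCagtcgggcgctgag
EIF4B (chr12:53006456-53006475, plus strand): CTTTTgcgttctctttccct

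The runs were from 5 to 16 bases long, the longest in EEF1B2 and the shortest in EIF4B. By role, TOP-like starts were found in 3 of 4 elongation factor genes with a start sequence, 4 of 8 genes for eIF3 subunits, 2 of 3 eIF2 genes, 2 of 10 eIF4 genes and 2 of 4 genes of eIF2-independent factors. The elongation gene without one was EEF1E1, for a scaffold of tRNA synthetases. EIF2S3 and its copy EIF2S3B, on different chromosomes, had the same 20 bases. None of the 5 eIF2B genes, the 3 eIF2 kinase genes, the 3 eIF5A genes or the 3 genes for modifiers of elongation factors with a start sequence had one. The cap-binding protein gene and the main scaffold and helicase genes of the eIF4F complex did not have a run of this length, as their first 20 bases show.
EIF4E (chr4:98929114-98929133, minus strand): gtgcgatcagatcgatctaa
EIF4G1 (chr3:184314606-184314625, plus strand): ggaaatggttgtggactacg
EIF4A1 (chr17:7572825-7572844, plus strand): cctagtttctaaggatcatg

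The 13 genes with a TOP-like start had a median level of 6.59 log2 CPM per kb, with a range from 4.30 to 9.74. The other 42 genes had a median of 5.21, with a range from -1.61 to 9.11. The ranges overlapped from 4.30 to 9.11, and the lowest genes were all among those without such a start. The 2 sets differ in the roles they hold. Within eIF3 the medians with and without such a start were 6.33 and 7.30. They were 5.82 and 5.79 for eIF2, 4.91 and 4.86 for eIF2-independent factors, and 6.39 and 5.17 for eIF4. For elongation they were 9.22 and 4.78, and for cytosolic ribosomal protein genes 8.22 and 8.04. For eIF2 and elongation the value without rests on 1 gene, which for elongation is EEF1E1. Over all genes of the table with a start sequence, the medians were 3.79 with a TOP-like start and 3.13 without.

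**Figure D1:**
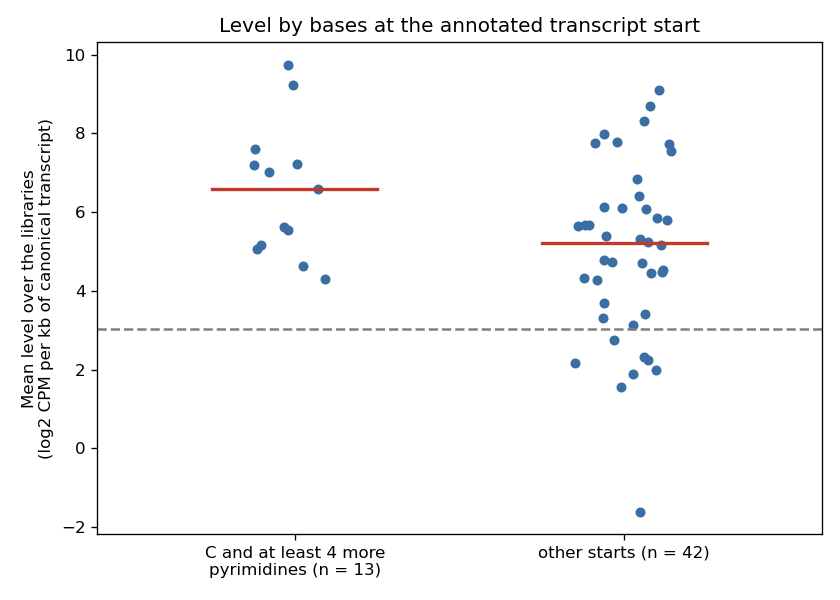
Mean level in log2 CPM per kb of canonical transcript for the 55 factor genes with a start sequence, as points, by the bases at the annotated start, with red lines for medians (6.59 and 5.21) and a dashed line for the median of all genes (3.04). All 13 genes with a TOP-like start lie above the dashed line, and the 42 others spread from -1.61 to 9.11.

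Most translation factor genes were above the middle of the range of all genes. Of the 70 genes, 59 were above the median of all genes per kb and 11 were below it, and 25 were in the highest 10% of all genes. Together they accounted for 1.86% of all CPM in the table, beside 3.04% for 82 cytosolic ribosomal protein genes. The median of the 70 genes was 5.52 log2 CPM per kb, compared with 3.04 for all genes and 8.21 for the ribosomal protein genes. The 3 genes in the highest 1% per kb were EEF1A1, EEF2 and EIF5A, which all encode proteins that act on the elongating ribosome. The 11 genes below the median of all genes were EIF2AK3, EIF4A1, EIF4E3, EIF4ENIF1, EIF5A2, EEF2K, EEF2KMT and 4 EEF1AKMT genes, so that 6 of them encode enzymes that modify elongation factors.

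**Figure D2:**
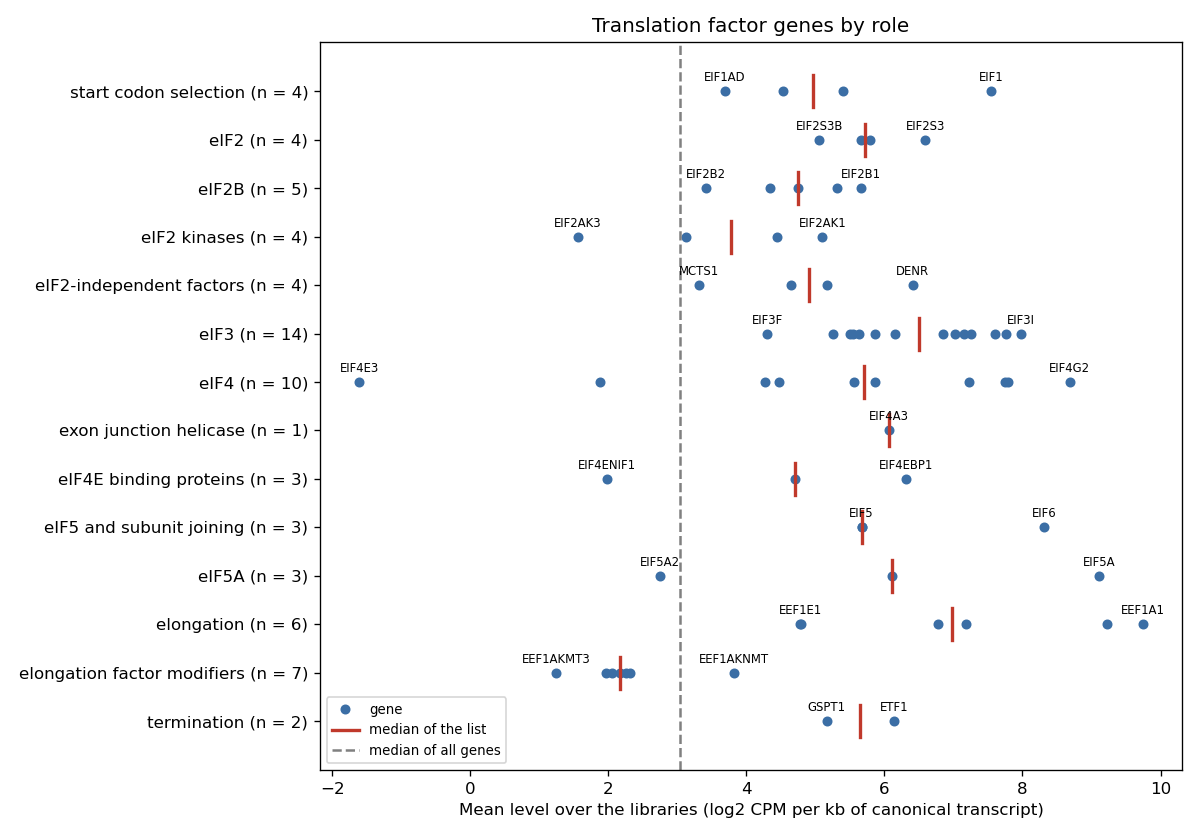
Mean level in log2 CPM per kb of canonical transcript for the 70 genes, as points in rows by role, with the lowest and highest gene of each role named, red bars for medians and a dashed line for the median of all genes (3.04). Elongation factors reach 9.74 and their modifiers stay at or below 3.82.

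The elongation factor genes had the highest median of the 4 main groups on this scale, at 6.98 log2 CPM per kb over 6 genes, followed by eIF3 at 6.50 over 14 genes, eIF2 at 5.72 over 4 genes and eIF4 at 5.71 over 10 genes. Their ranges overlapped, and there is no replicate error with which to separate them. The order depended on the length used for scaling. With the length column of the deposited table, eIF3 (5.59) and eIF2 (5.52) were above elongation (5.28) and eIF4 (4.39). The elongation group includes EEF1E1, for a scaffold of tRNA synthetases, at 3.78 with that length. With EEF1E1 left out, the middle gene of the group was EEF1B2, at 5.94 with that length and with merged exons. Both values were above the eIF3 and eIF2 medians, so the place of elongation with these lengths depended on EEF1E1. All 4 medians were above that of all genes under each of 5 length settings, and eIF4 had the lowest of the 4 in each of these. The place of eIF4 changed with the genes that were counted. With only genes above the lowest 25% of levels its median was 6.54 log2 CPM per kb over 8 genes, above eIF3 (6.50) and eIF2 (5.72). Without genes that share at least 10% of their 75-base windows of sequence with other genes, the eIF4 median was also 6.54, over 6 genes. This was below eIF3 (6.59, over 10 genes) and above EIF2S1 (5.79), the only eIF2 gene left.

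**Figure D3:**
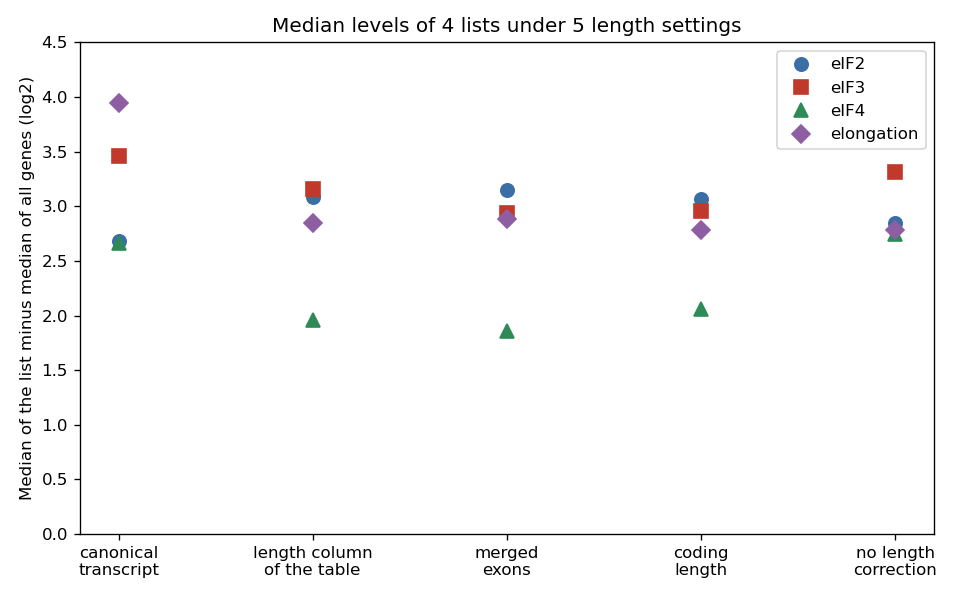
Median level of the eIF2, eIF3, eIF4 and elongation genes minus the median of all genes, in log2, under 5 ways of scaling by length. The elongation genes include EEF1E1, for a scaffold of tRNA synthetases. Elongation genes are highest with the canonical transcript (3.94), eIF3 with the length column of the table (3.15) and without length correction (3.31), and eIF2 with merged exons (3.15) and coding length (3.07), whereas eIF4 (triangles) stays between 1.86 and 2.75.

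Among the factors that choose the start codon, EIF1 was highest. This gene, whose product holds the small subunit open for scanning, had a level of 186.5 CPM per kb, 8.09 times that of its paralogue EIF1B (23.1 CPM per kb), and the ratio in CPM without length was 19.2. EIF1AX, for eIF1A, was at 42.3 CPM per kb.

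The 3 genes for the subunits of eIF2 lay close together. EIF2S3, for the GTP-binding gamma subunit, was at 96.4 CPM per kb, EIF2S1, for the alpha subunit that stress kinases phosphorylate, was at 55.3, and EIF2S2, for the beta subunit, was at 50.4. With coding length EIF2S1 was above EIF2S3. The alpha and beta genes differed by a factor of 1.10, and with the length column of the table the order of this pair turned, at a ratio of 0.829. EIF2S3B, the copy on chromosome 12, was at 33.2 CPM per kb.

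The nucleotide exchange factor eIF2B, which recharges eIF2 with GTP, had lower levels. Its 5 subunit genes had a median of 26.8 CPM per kb, beside 52.8 for eIF2. EIF2B1, for the alpha subunit, was highest at 50.5 and EIF2B2, for the beta subunit, was lowest at 10.7, a ratio of 4.73. EIF2B2 was lowest only with its canonical transcript, of 4304 bases. In CPM, and with the length column of the table, merged exons or coding length, EIF2B4, for the delta subunit, was lowest instead (33.2 CPM beside 46.0 for EIF2B2), and the ratio of EIF2B1 to EIF2B2 in CPM was 2.64. Of the kinases that phosphorylate eIF2 alpha, EIF2AK1 (HRI, which responds to haem shortage) was highest at 34.3 CPM per kb and EIF2AK4 (GCN2, which responds to lack of amino acids) was next at 21.8. EIF2AK2 (PKR, which binds double-stranded RNA) was at 8.69 and EIF2AK3 (PERK, the sensor in the endoplasmic reticulum) at 2.95. The ratio of EIF2AK1 to EIF2AK3 was 11.6, and was 11.3 with the length column of the table. Other lengths gave a wider gap. In log2 CPM per kb, EIF2AK1 and EIF2AK3 were at 5.10 and 1.56 with the canonical transcript. They were at 4.78 and -0.63 with merged exons, and at 6.32 and 2.00 with coding length. With coding length EIF2AK2 was above EIF2AK4.

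DENR and MCTS1 encode partners in a heterodimer that recycles small subunits and helps reinitiation. DENR was at 85.0 CPM per kb and MCTS1 at 9.92. MCTS1 has a canonical transcript of 9577 bases, and in CPM without length the ratio of the 2 genes was 2.43 in place of 8.57. EIF2D, whose product combines both functions in a single protein, was at 36.0 CPM per kb, and EIF2A, which can bring the initiator tRNA without eIF2, at 4.64 on the log2 CPM per kb scale. In CPM EIF2D (72.4) was below MCTS1 (95.0), and with coding length it was also below (5.37 and 7.45 log2 CPM per kb).

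The 14 genes for eIF3, the scaffold that holds the initiation complex together, were all above the median of all genes. EIF3I, at 251.4 CPM per kb, and EIF3B, at 216.0, were highest, and both encode members of the same peripheral module with EIF3G (152.8). EIF3J, for a loosely bound subunit, and EIF3F were lowest, at 38.1 and 19.7. The ratio of the highest to the lowest gene was 12.7. EIF3F has a canonical transcript of 6920 bases, and in CPM it was at 136.4 whereas EIF3I was at 357.2, a ratio of 2.62. In CPM the highest gene was EIF3B (668.6) and the lowest was EIF3J (94.5). With merged exons EIF3B was again highest (6.22 log2 CPM per kb) and EIF3E was lowest (2.93). EIF3I was then at 5.23, below EIF3A (6.06) and EIF3G (5.59) among others. EIF3A, for the largest subunit, was at 71.2 CPM per kb.

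EIF3C and EIF3CL are near-identical copies on chromosome 16. Of the 75-base windows in the EIF3C transcript, 97.9% also occur in EIF3CL, and a single read of that length within them cannot be assigned to either. The levels of the pair, 114.8 and 45.4 CPM per kb, are therefore uncertain.

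The eIF4 group had the widest range. EIF4G2 (DAP5, a scaffold without an eIF4E site) was highest at 411.3 CPM per kb (with coding length EIF4H was higher), and EIF4G1, the main scaffold, was at 221.4, which was 9.95 times the level of its paralogue EIF4G3. EIF4H and EIF4B, helpers of the helicase, were at 213.9 and 47.0 CPM per kb. EIF4E, the cap-binding protein, was at 19.3 CPM per kb, and the level of EIF4G1 was 11.5 times as high. This ratio was 43.6 with the length column of the table, which is much longer for EIF4E (14067 bases) than its canonical transcript (2427 bases), and 25.6 in CPM. The related cap-binding protein gene EIF4E2, with a canonical transcript of 967 bases, was at 58.1 CPM per kb. Its ratio to EIF4E was 3.01 per kb and 1.20 in CPM. With merged exons EIF4E2 was below EIF4E, at 2.29 and 3.23 log2 CPM per kb. EIF4E3, also related, was at 0.327 CPM per kb and was the lowest gene of all 70, at percentile 0.783 of all genes. It has a canonical transcript of 9978 bases, and in CPM it was again the lowest of the 70 (3.26 CPM) but at percentile 11.3 of all genes, while with coding length EIF2AK3 was lower. The 4E-BP genes EIF4EBP1 (79.4 CPM per kb) and EIF4EBP2 (26.0) were both above EIF4E, by factors of 4.12 and 1.35. With the length column of the table these factors were 22.4 and 7.82, and in CPM they were 1.40 and 4.16. In CPM without length, EIF4EBP2 (194.8) was above EIF4EBP1 (65.7), so the order within this pair depended on the long transcript of EIF4EBP2. EIF4E shares 19.0% of its windows of sequence with other genes, whereas EIF4EBP1 and EIF4EBP2 share 0%. The EIF4E pseudogene EIF4EP2 was at 35.3 CPM, 0.754 times the 46.8 CPM of EIF4E. With this CPM added to EIF4E, the factors of 1.35 per kb and 1.40 in CPM would turn, and the others given here would not. Whether reads of EIF4E were counted for EIF4EP2 was not tested. EIF4ENIF1, the carrier that brings eIF4E into the nucleus, was at 3.94 CPM per kb.

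EIF4A1, the abundant helicase of the eIF4F complex in most cells, was listed at 3.69 CPM per kb (6.48 CPM), at percentile 30.0 of all genes, and its paralogue EIF4A2 was 40.5 times as high. All of the exon bases of EIF4A1 (chromosome 17) are also annotated, on the same strand, as exons of other genes, among them the readthrough gene SENP3-EIF4A1, and 100% of its 75-base windows occur in transcripts of those genes. Of the 13922 genes with a canonical transcript, 489 (3.51%) have 50% or more of their exon bases in this position, and of the 70 genes 2 have (EIF4A1 and EIF3L). The part of this overlap in the level of EIF4A1 was not tested, and its level is uncertain. EIF3L was at 46.4 CPM per kb, and the gene that overlaps it, AL022311.1, was at 1.81 CPM. EIF4A3, a helicase of the exon junction complex and not of eIF4F, was at 67.2 CPM per kb.

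The factors of the last step of initiation lay close together, with EIF5, the GTPase activator of eIF2, at 50.9 CPM per kb and EIF5B, which joins the subunits, at 51.2. EIF6, which keeps the large subunit from joining early, was higher at 317.7 CPM per kb. For eIF5A, the hypusine-containing factor, EIF5A was at 552.9 CPM per kb and its paralogue EIF5A2 at 6.71, a ratio of 82.4. The ratio was 38.9 with the length column of the table and 18.8 in CPM. The copy gene EIF5AL1 was at 69.1 CPM per kb, and 21.8% of the 75-base windows of EIF5A occur in it.

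EEF1A1, the main carrier of aminoacyl-tRNA, was the highest of the 70 genes at 857.2 CPM per kb (chromosome 6, percentile 99.5), although with merged exons EEF2 was above it. EEF2, the translocase, followed at 597.4. The paralogue EEF1A2, known from muscle and neurons and from some breast tumours, was at 27.7 CPM per kb, so that EEF1A1 was 31.0 times as high, or 61.3 times in CPM. The exchange factor subunits EEF1B2 and EEF1D were at 145.7 and 110.0 CPM per kb, and EEF1E1 (AIMP3, a scaffold of tRNA synthetases) was at 27.4. In CPM the order of EEF1B2 (117.8) and EEF1D (229.9) turned. EEF1G, for the gamma subunit of the complex, had no row under this symbol. EEF2K, the kinase that inactivates eEF2, was at 4.51 CPM per kb, and EEF2 was 132.3 times as high, or 56.5 times in CPM, in which the 7398 bases of the EEF2K transcript do not count. The methyltransferase genes of elongation factors were between 2.37 CPM per kb for EEF1AKMT3 and 14.1 for EEF1AKNMT. The release factor genes ETF1, which reads stop codons, and GSPT1, its GTPase partner, were at 70.4 and 35.8 CPM per kb. The canonical transcript of GSPT1 has 7141 bases, and in CPM the levels were 259.0 and 255.4, a ratio of 1.01.

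Processed pseudogenes are intronless copies of mRNAs, and their rows were compared with those of the genes they come from. The 39 pseudogenes with a row came from 15 of the 70 genes, and 13 of them from EEF1A1 alone. EEF1A1P5, on chromosome 9, was at 5402 CPM, which was above EEF1A1 itself (3010 CPM), and EEF1A1P6 was at 1785. Together the EEF1A1 pseudogenes amounted to 2.51 times the CPM of EEF1A1. The pseudogenes of EEF1B2, EIF2S2 and EIF4A1 also summed to more than their parent, by factors of 1.72, 1.29 and 35.7. For EIF4A1 the largest was EIF4A1P10 on chromosome X, at 160.0 CPM, followed by EIF4A1P2 on chromosome Y, at 41.4 CPM. Whether the reads counted for a pseudogene came from its own locus was not tested. The share of 75-base windows that also occur in a transcript of another gene was 33.7% for EEF1A1, 48.6% for EEF1B2, 19.3% for EIF2S2, 19.0% for EIF4E and 22.6% for EIF4B. It was 0 for 36 of the 70 genes, among them EEF2, EIF4G1, EIF4G2, EIF3A, EIF3B, EIF3I and all eIF2B and eIF2 kinase genes, and at least 10% for 21. How reads that match several places were counted is not given in the sources used here, and the part of these pseudogenes in the levels was not tested. With the CPM of the pseudogenes added to their parents, the median of the eIF4 genes became 6.64 log2 CPM per kb, above eIF3 (6.50) and eIF2 (6.19), and that of the elongation genes 7.79.

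**Figure D4:**
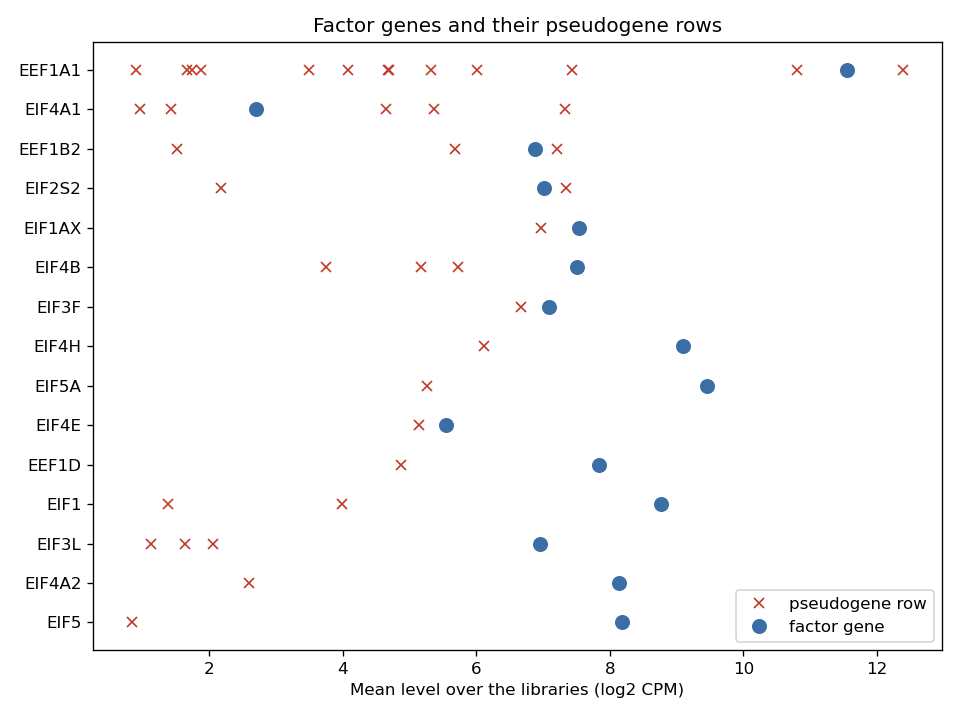
Mean level in log2 CPM of the 15 factor genes that have pseudogenes in the table (circles) and of those 39 pseudogenes (crosses), ordered by the summed CPM of the pseudogenes. EEF1A1P5 (12.40) lies to the right of EEF1A1 (11.56), and 3 of 5 EIF4A1 pseudogenes lie to the right of EIF4A1 (2.70).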

How the data were processed

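The series holds 2 cordycepin and 2 DMSO samples of MDA-MB-231 Fluc cells. Mapping to GRCh38.p13 and counting with rsubread were done by the authors from paired-end reads of 75 bp, while the submitters' processing notes name TopHat, HTSeq, DESeq and Cufflinks and the build hg38. The authors' deposited table gives a mean level of each gene as log2 CPM. The normalization and the filter on low counts are not given in the sources used here. Raised to the power of 2, the levels of its genes sum to 1005541 CPM, which fits a log of base 2. The table also holds columns of the authors' own comparison of cordycepin with DMSO (fold changes on a log scale, F values, and p-values before and after adjustment), which were not used. It holds 0 further columns of values per sample, so no library was rescaled and no test was made.

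Levels were divided by the length of the GENCODE release 44 canonical transcript, which was found for 99.7% of genes. The table's own length column equalled the merged exons for 73.7% of genes. Shared sequence was measured as the share of 75-base windows of a canonical transcript found in transcripts of other genes. Start sequences were those of RefSeq (GRCh38.p14), at the start of the canonical transcript where listed and otherwise the first listed. The 70 genes, their 14 lists and the start rule were chosen with earlier results of these data known. Every one of the 70 genes could be named, in lists of 5 or more the 2 highest and 2 lowest in the first place, and others named were chosen after their values were seen. Alternatives were other lengths, other sets of genes, a filter on low levels and other rules for the start. The window search and medians were tested on simulated data. Python 3.11.15, numpy 2.4.6, pandas 2.3.3 and matplotlib 3.10.9 were used.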

Additional observations from a re-analysis of the deposited data

How the results depend on the processing

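No paired analysis was possible because the levels carry no replicate number, and for the same reason no library could be left out. Of 128 values under alternatives, given as the median of a list minus the median of all genes in log2 or as a count of starts, 85 stayed within a factor of 1.5 of the reported value and in the same direction. With only genes above the lowest 25% of levels, eIF2 went from 2.68 to 2.03, eIF3 from 3.46 to 2.80 and elongation from 3.94 to 3.29, since the median of all genes rose, whereas eIF4 went from 2.67 to 2.84 because EIF4E3 and EIF4A1 were left out, and so came above eIF3 and eIF2. Merged exons gave 1.86 for eIF4 and 2.89 for elongation, coding length gave 2.06 and 2.79, and no length correction gave 2.78 for elongation. Among settings chosen after seeing the data, the length column of the table gave 1.95 for eIF4 and 2.85 for elongation, adding pseudogenes gave 3.60 and 4.75, and leaving out genes with at least 10% of windows shared gave 3.50 for eIF4 over 6 genes. Runs starting within 5 bases of the annotated start were found in 20 of 55 genes (36.4%) in place of 13 (23.6%). Over all genes with a start sequence, they were found in 2207 of 9764 (22.6%) in place of 542 (5.55%). With this wider rule, 1 of 3 eIF5A genes and 1 of 3 genes for modifiers of elongation factors had a run. The direction turned in 2 small lists. The eIF4E binding proteins fell from 1.66 to -1.06 with the ending read literally, when EIF4ENIF1 remained alone. The eIF5A list went from 3.07 to -0.29 when EIF5A2 remained alone, without the copies that share reads or without genes with shared windows. The unknown depth limits the lowest values, such as EIF4E3, the most.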
